A study of Mus musculus with 8 samples.

Results

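The genes described here regulate or mark the formative and primed states of pluripotency, and 9 of them were chosen by name: Otx2, Fgf5, Pou3f1, Utf1, Tcf15, Zic2, Zic5, Foxd3 and Grhl2. Of these 9 genes, 7 had a row among the 17728 gene identifiers analysed, and all 7 passed the low-level filter, a mean over the 8 samples of 1 FPKM or more, which left 11269 genes to test. FPKM is a gene's number of sequenced fragments, divided by its length and by the depth of the sample. Fgf5 and Pou3f1 had no row under their identifiers (ENSMUSG00000029337 and ENSMUSG00000090125) and were not analysed here.

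Total RNA of E14TG2a cells was sequenced, a mouse embryonic stem cell line of strain 129/Ola kept at passages 3-6 on gelatin without feeder cells. All groups were grown with serum, leukaemia inhibitory factor, the GSK3 inhibitor CHIR99021 and the MEK inhibitor PD0325901. The 4 groups, with 2 biological replicates each, were unedited cells (WT) and 3 enhancer knockouts made with CRISPR/Cas9, labelled E1-KO, E2-KO and E3-KO. The stated interest was how enhancer and promoter associations bear on the functions of Sox2. The labels give neither the positions of the enhancers nor the number of clones behind a line, and no edited line with intact enhancers was used here, so effects of editing, clone or culture cannot be told apart from those of the enhancers. With 2 samples a group, the p-values measure the spread within these pairs of samples. That spread was pooled over the 4 groups and drawn towards that of genes at a similar level.

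Pluripotent cells pass from a naive state, held by leukaemia inhibitory factor and the 2 kinase inhibitors, through a formative state to the primed state of the epiblast that is about to gastrulate. In that passage the homeobox factor Otx2 redirects the pluripotency factors to new enhancers, Grhl2 opens enhancers of epithelial genes, and Foxd3 helps to shut naive enhancers. Tcf15, a basic helix-loop-helix factor, primes cells to leave the naive state, Utf1 is a chromatin-bound protein of undifferentiated cells, and Zic2 and Zic5 are zinc finger factors that bind enhancers in pluripotent and neural cells.

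Sox2, the gene of interest of the study, stood at 131 and 136 FPKM in the WT samples. It was at 58.0 and 60.3 FPKM in E1-KO, 97.5 and 114 FPKM in E2-KO and 91.0 and 97.7 FPKM in E3-KO, below both WT samples in each of the 6 knockout samples, with log2 fold changes of -1.16, -0.34 and -0.50 (limma-trend adjusted p = 0.000168, 0.0314 and 0.0049). Markers of the stem cell state were present in every sample, with a summed level of 7 such genes between 1417 and 1890 FPKM. Depth relative to WT replicate 1, read from the steps between low values, was 0.787 to 1.01, and absolute depth was unknown. Over all tested genes, the medians of the log2 fold change against WT were -0.06, -0.08 and -0.15 for the 3 knockouts in turn, and other scalings of the samples moved them to between -0.12 and 0.01.

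The promoters of 3 members are shown because Otx2 fell, Utf1 rose and Foxd3 differed between the knockouts. The RefSeq promoter table (GRCm38.p6) held 4 of the 7 listed genes, namely Otx2, Utf1, Zic5 and Foxd3. Each sequence is the stretch of up to 250 bases before a RefSeq start that overlaps no annotated exon of the gene, 5′ to 3′ on the strand of the gene. The Otx2 window lies within the annotated gene, in an intron of a longer transcript that starts upstream. Capitals mark a GC box, GGGCGG on either strand. The windows are chr14:48667645-48667894 (minus strand) for Otx2, at the first of its 4 starts, chr7:139943606-139943788 (plus strand) for Utf1, and chr4:99656049-99656298 (plus strand) for Foxd3.
Otx2: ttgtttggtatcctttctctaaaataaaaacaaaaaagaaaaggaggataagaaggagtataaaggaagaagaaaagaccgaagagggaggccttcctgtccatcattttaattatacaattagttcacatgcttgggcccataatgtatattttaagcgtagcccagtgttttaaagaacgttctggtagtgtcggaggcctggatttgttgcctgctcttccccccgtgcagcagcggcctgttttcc
Utf1: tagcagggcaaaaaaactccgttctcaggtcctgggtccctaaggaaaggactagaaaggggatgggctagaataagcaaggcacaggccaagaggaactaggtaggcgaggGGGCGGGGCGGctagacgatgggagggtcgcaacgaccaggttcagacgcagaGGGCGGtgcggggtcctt
Foxd3: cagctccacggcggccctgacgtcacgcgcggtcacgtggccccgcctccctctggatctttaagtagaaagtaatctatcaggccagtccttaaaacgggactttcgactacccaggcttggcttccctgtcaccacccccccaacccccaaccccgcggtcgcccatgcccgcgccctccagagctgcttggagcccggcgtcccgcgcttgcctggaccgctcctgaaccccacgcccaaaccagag

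The GC content of these windows was 42% for Otx2, 59.6% for Utf1 and 65.6% for Foxd3. The Utf1 window held 3 GC boxes, counted with overlap, and the other two held none. A GC box was found in 32.7% of all 32851 windows of 250 bases in the table. The SOX motifs ACAATG and ACAAAG, the octamer ATGCNAAT of POU factors and the OTX motif TAATCC were searched on both strands and did not occur in the 3 windows shown. They were found in 10.7%, 16.5%, 2.86% and 6.25% of all windows. Of the windows at the other 3 Otx2 starts, that at the third start held 1 TAATCC, 211 bases before the start, and the Zic5 window held none of these motifs. These are matches of letters in short windows, and the rest of the genes was not searched.

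Against WT, the regulators did not move in 1 direction. Otx2 and Grhl2 fell in all 3 knockouts, Utf1 rose in all 3, Tcf15 rose in E1-KO and E2-KO, Foxd3 rose in E2-KO and E3-KO, and neither Zic2 nor Zic5 passed the test in any. Of the 7 genes, 4 were called in E1-KO (2 higher and 2 lower), 5 in E2-KO (3 higher and 2 lower) and 4 in E3-KO (2 higher and 2 lower). The test was limma-trend with Benjamini-Hochberg adjustment over all 11269 genes, called at an adjusted p under 0.05. Over all tested genes the shares called in these comparisons were 38%, 36.1% and 44.7%, in the same order, so calls were common among all genes and nothing particular to the 7 is read from their counts. Calls of higher level made up 15%, 14.2% and 13.9% of tested genes in the 3 knockouts, and calls of lower level 23%, 22% and 30.8%. The 3 comparisons share the WT samples. Utf1 was called higher in all 3 knockouts, as were 6.56% of tested genes, and Otx2 and Grhl2 lower in all 3, as were 13%. Without E2-KO replicate 1, or without WT replicate 2, the number of regulators called in E2-KO was 3. In bulk samples a change of RNA per cell cannot be told apart from a change in the share of cells that hold it. Over the 4 groups together 5 of the 7 regulators were called, against 54.5% of all tested genes. The 7 genes had median log2 fold changes of 0.05, 0.22 and 0.16, middle values between genes of opposite direction. Fold changes were computed from log2(FPKM + 1), so those of genes at low level are understated.

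**Figure D1:**
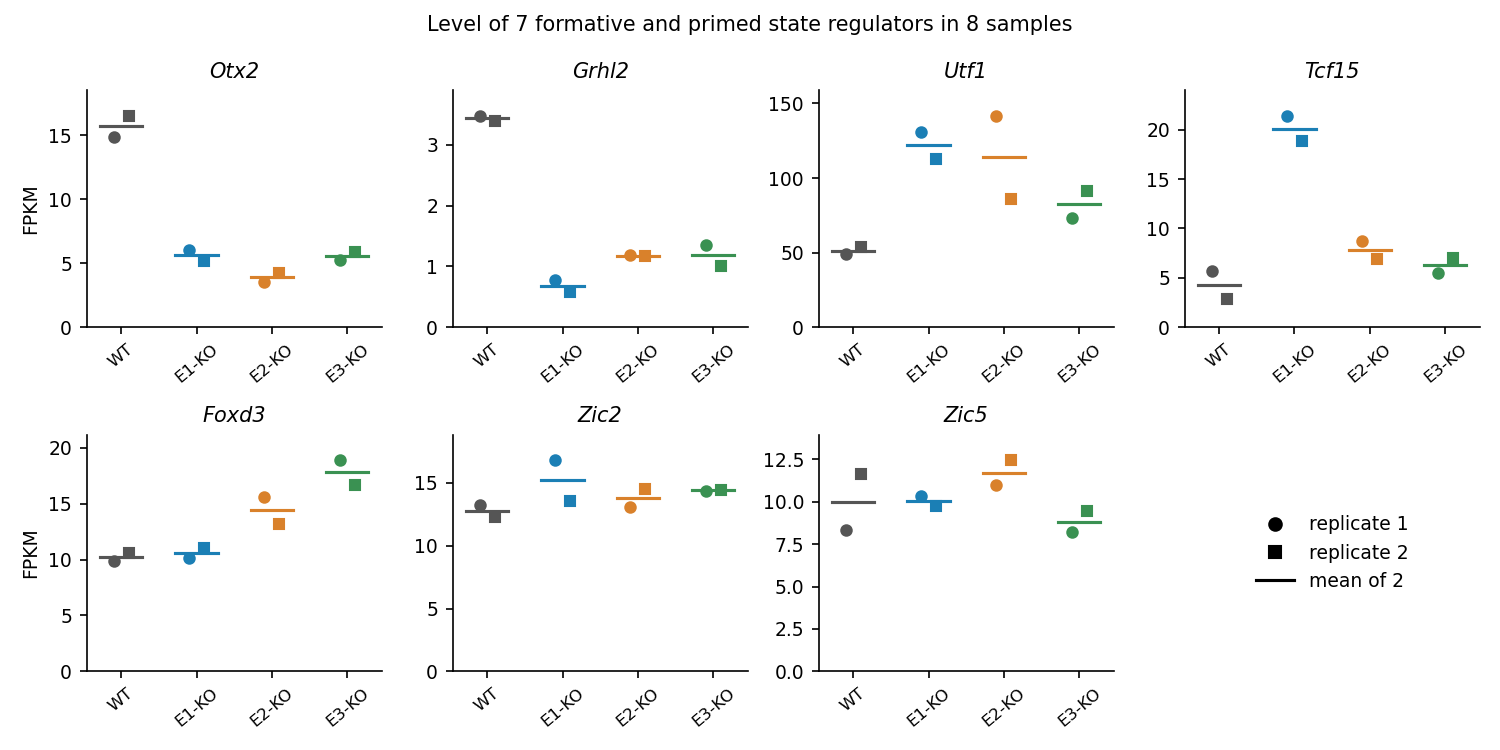
Level in FPKM (y axis, linear from 0) of each of the 7 listed regulators in the 8 samples, grouped on the x axis by line. Circles and squares are replicates 1 and 2 and lines are group means, and Otx2 and Grhl2 sit highest in WT, Utf1 lowest in WT, and Tcf15 highest in E1-KO.

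**Figure D2:**
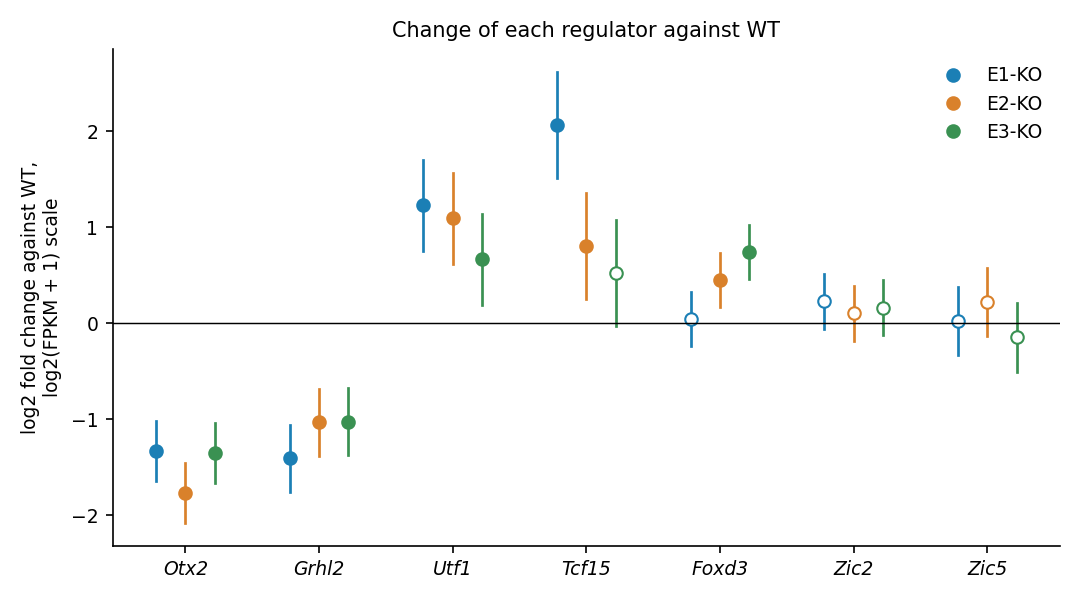
Log2 fold change against WT on the log2(FPKM + 1) scale (y axis) for each regulator (x axis) in E1-KO, E2-KO and E3-KO, with 95% intervals from limma-trend. Filled points have an adjusted p under 0.05, and the points run from -1.77 for Otx2 in E2-KO to 2.07 for Tcf15 in E1-KO.

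Among the transcription factors that fell, Otx2 (ENSMUSG00000021848, chromosome 14, 48657677 to 48673819, minus strand) was at 14.9 and 16.5 FPKM in the WT samples. Its level was 6.02 and 5.20 FPKM in E1-KO, 3.53 and 4.26 FPKM in E2-KO and 5.22 and 5.88 FPKM in E3-KO. Every knockout sample lay below both WT samples, and the group means were 35.8%, 24.9% and 35.4% of the WT mean. The log2 fold change was -1.34 in E1-KO (standard error 0.138, limma-trend adjusted p = 0.000281), -1.77 in E2-KO (adjusted p = 9.53e-05) and -1.35 in E3-KO (adjusted p = 0.000176). Of all tested genes, 0.453% fell further than Otx2 in E2-KO. Across the groups the order of levels was WT, E1-KO, E3-KO and E2-KO. E1-KO and E3-KO did not differ beyond their spread (difference -0.01, 95% interval -0.32 to 0.30).

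Whether Otx2 was lower in E2-KO than in the other knockouts depended on the comparison and the scaling. E3-KO was above E2-KO by 0.42 (95% interval 0.11 to 0.73), which did not pass by limma-trend (adjusted p = 0.071, and 0.0137 unadjusted), although the 2 groups did not overlap. It passed under quantile normalization (0.50, adjusted p = 0.0406) and under 3 other settings. E2-KO minus E1-KO was -0.43 (95% interval -0.75 to -0.12, adjusted p = 0.155). The annotated antisense gene Otx2os1 overlaps Otx2 on the opposite strand and has no row, and whether strand was used in counting is not given in the sources used here, so reads of the pair cannot be told apart. The nearest listed gene at higher coordinates, Exoc5, lies 330.3 kb away. Its log2 fold changes of 0.10, 0.11 and 0.19 did not pass (adjusted p = 0.606, 0.577 and 0.327).

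Grhl2 (ENSMUSG00000022286, chromosome 15, 37233036 to 37363569, plus strand), the epithelial grainyhead factor, had the lowest level of the 7 genes. Its WT samples were at 3.48 and 3.40 FPKM. The knockout samples were at 0.775 and 0.572 FPKM in E1-KO, 1.18 and 1.16 FPKM in E2-KO, and 1.35 and 1.01 FPKM in E3-KO. All 6 were below both WT samples, and the group means were 19.6%, 34.1% and 34.4% of the WT mean. The log2 fold changes were -1.41 (standard error 0.155, limma-trend adjusted p = 0.000349), -1.03 (adjusted p = 0.00152) and -1.03 (adjusted p = 0.00107). Because the gene is low, the added 1 FPKM compresses its change. With 0.1 FPKM added in its place the fall in E1-KO was -2.21 on the log2 scale (adjusted p = 0.000579). E2-KO and E3-KO did not differ beyond their spread (difference 0.00, 95% interval -0.35 to 0.35). Each of them was above E1-KO by 0.38, which did not pass (adjusted p = 0.238 for E2-KO and 0.101 for E3-KO). The antisense genes Gm16136 and Gm16137 overlap Grhl2 and have no row. Zfp706, the nearest listed gene at lower coordinates and 225 kb away, fell too, by less (-0.56, -0.35 and -0.49, adjusted p = 0.00368, 0.0285 and 0.00519).

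Genes of epithelial cells, with which Grhl2 is usually linked, were given as a list of 7, of which 6 could be tested. In E1-KO 1 was higher and 2 were lower, in E2-KO none was higher and 4 were lower, and in E3-KO 1 was higher and 2 were lower. Of all tested genes 38%, 36.1% and 44.7% were called, and nothing particular to the list is read from its counts. Cldn7, a tight junction claudin, fell in all 3 knockouts by log2 fold changes of -0.63, -1.12 and -0.63 (limma-trend adjusted p = 0.0189, 0.00166 and 0.016). Its WT samples were at 3.61 and 3.50 FPKM and its knockout samples between 1.05 and 2.30 FPKM. Cldn6 fell in E2-KO (-1.04) and E3-KO (-0.53), and Epcam, an epithelial adhesion molecule, fell in E2-KO (-0.95). Krt18 fell in E1-KO (-0.67) and E2-KO (-1.46), whereas Krt8, its keratin partner, rose in E1-KO (0.64) and E3-KO (1.16). Cdh1, the gene of E-cadherin, was at 318 and 343 FPKM in WT and between 274 and 337 FPKM in the knockouts. Its log2 fold changes of -0.04, -0.15 and -0.01 did not pass (adjusted p = 0.82, 0.321 and 0.927). The summed level of the 7 epithelial genes, most of it Cdh1, was 358 to 383 FPKM in WT, 352 to 359 in E1-KO, 297 to 341 in E2-KO and 365 to 376 in E3-KO.

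Of the genes that rose, Utf1 (ENSMUSG00000047751, chromosome 7, 139943789 to 139945112, plus strand) had the highest level. Its WT samples were at 49.1 and 53.5 FPKM. E1-KO was at 131 and 113 FPKM, E2-KO at 142 and 85.9 FPKM and E3-KO at 73.3 and 91.2 FPKM. All 6 knockout samples were above both WT samples, and the 2 samples of E2-KO were the farthest apart. The group means were 2.38, 2.22 and 1.60 times the WT mean. The log2 fold change was 1.23 in E1-KO (standard error 0.210, limma-trend adjusted p = 0.00248) and 1.09 in E2-KO (adjusted p = 0.00469). In E3-KO it was 0.66 (adjusted p = 0.03), a call close to the threshold. With no sample left out, it ended under a correction for GC content and transcript length (0.60, adjusted p = 0.0572). It also ended with all genes above 0 FPKM kept (adjusted p = 0.0747). The change in E3-KO was 0.51 without E3-KO replicate 2, 0.60 without WT replicate 1 and 0.72 without WT replicate 2. The call ended in each of these fits, which leave 1 sample in a group. Between E3-KO and E1-KO the difference was -0.57 (95% interval -1.04 to -0.09, adjusted p = 0.0785). It passed without either E2-KO sample (adjusted p = 0.0138 for each) and with the 4 samples of the pair alone (adjusted p = 0.0298). E3-KO minus E2-KO was -0.43 (adjusted p = 0.197), and -0.79 without E2-KO replicate 2 (adjusted p = 0.0185).

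The nearest listed gene, Kndc1, ends 2.25 kb before Utf1. It had a mean of 1.39 FPKM and log2 fold changes of 0.02, -0.25 and 0.04, none of which passed (limma-trend adjusted p = 0.926, 0.204 and 0.855).

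Tcf15 (ENSMUSG00000068079, chromosome 2, 152143561 to 152149097, plus strand) had its highest level in E1-KO. Its WT samples were at 5.67 and 2.80 FPKM, a wide spread at a low level. In E1-KO it reached 21.4 and 18.8 FPKM, above every other sample. E2-KO was at 8.76 and 6.90 FPKM, above both WT samples, and E3-KO at 5.51 and 7.01 FPKM, which overlapped WT. The log2 fold change in E1-KO was 2.07 (standard error 0.245, limma-trend adjusted p = 0.00049), 4.75 times the WT mean, and 25 of the 11269 genes rose by more. In E2-KO it was 0.80 (adjusted p = 0.0314) and in E3-KO 0.52 (95% interval -0.03 to 1.07, adjusted p = 0.114).

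Compared directly, the level of Tcf15 was higher in E1-KO than in E3-KO. E3-KO minus E1-KO was -1.55 on the log2 scale (95% interval -2.10 to -0.99, limma-trend adjusted p = 0.0024). E2-KO minus E1-KO was -1.26 (95% interval -1.82 to -0.71), just short of the threshold (adjusted p = 0.0605), and it passed without either WT sample (adjusted p = 0.0442 and 0.044) or without either E3-KO sample (adjusted p = 0.0497 and 0.0499). Between E2-KO and E3-KO no difference passed (-0.28, 95% interval -0.84 to 0.27). The call in E2-KO against WT ended without WT replicate 2 (0.40, adjusted p = 0.211) and without E2-KO replicate 1 (0.65, adjusted p = 0.155). Without WT replicate 1 the change was 1.21 in E2-KO, and that in E3-KO passed (0.93, adjusted p = 0.0144). Its neighbour Srxn1, 32.2 kb away, rose in E1-KO by 0.68 (adjusted p = 0.00367) and did not pass in E2-KO or E3-KO (-0.13 and -0.09). On the other side Csnk2a1, 77.7 kb away, did not pass in any knockout (0.02, -0.10 and -0.10).

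Foxd3 (ENSMUSG00000067261, chromosome 4, 99656299 to 99658622, plus strand) passed the test in E2-KO and E3-KO. It was at 9.87 and 10.6 FPKM in WT and at 10.1 and 11.04 FPKM in E1-KO, and these groups overlapped. E2-KO was at 15.6 and 13.2 FPKM and E3-KO at 18.9 and 16.7 FPKM, each above both WT samples, and no E3-KO sample overlapped E2-KO. The log2 fold change was 0.05 in E1-KO (95% interval -0.24 to 0.33, limma-trend adjusted p = 0.796), 0.45 in E2-KO (adjusted p = 0.021) and 0.74 in E3-KO (standard error 0.125, adjusted p = 0.00177). Compared directly, E3-KO was above E1-KO by 0.70 (95% interval 0.42 to 0.98, adjusted p = 0.00425). E2-KO lay between them, 0.41 above E1-KO (adjusted p = 0.144) and 0.29 below E3-KO (adjusted p = 0.147), and neither difference passed. The call in E2-KO against WT ended without E2-KO replicate 1 (0.34, adjusted p = 0.111), WT replicate 1 (0.41, adjusted p = 0.119) or WT replicate 2 (0.50, adjusted p = 0.0768). Alg6, the next listed gene at higher coordinates and 57.0 kb away, fell in all 3 knockouts (-0.66, -0.64 and -1.05, adjusted p = 0.00258, 0.00318 and 0.00021).

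Foxd3 also marks the neural crest, and a list of 6 neural crest genes was read beside it. The summed level of these genes was 8.94 to 9.47 FPKM in WT, 5.30 to 6.41 in E1-KO, 5.82 to 6.08 in E2-KO and 9.60 to 11.5 in E3-KO. Most of this sum was Tfap2a, the only 1 of the 6 that could be tested. It was called lower in E1-KO (-0.73, limma-trend adjusted p = 0.0047) and E2-KO (-0.70, adjusted p = 0.00624), but not in E3-KO (0.04, adjusted p = 0.836). Snai2, too low to test, was at 0.177 and 0.0731 FPKM in WT and between 0.491 and 0.950 FPKM in the knockouts. Sox10 was at or below 0.256 FPKM and Pax3 at or below 0.0269 FPKM in every sample. Pax3 was listed at 0 in both WT and both E1-KO samples.

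Zic2 and Zic5 lie head to head on chromosome 14, with 9.76 kb between them. Zic2 (ENSMUSG00000061524, 122475435 to 122479852, plus strand) was at 13.2 and 12.3 FPKM in WT, 16.8 and 13.6 FPKM in E1-KO, 13.0 and 14.5 FPKM in E2-KO and 14.3 and 14.4 FPKM in E3-KO. The E1-KO and E3-KO samples were above both WT samples by a small margin, and E2-KO overlapped WT. Its log2 fold changes were 0.23, 0.10 and 0.16, with 95% intervals of -0.06 to 0.51, -0.18 to 0.39 and -0.12 to 0.45 (limma-trend adjusted p = 0.18, 0.553 and 0.322). Quantile normalization took the changes in E1-KO and E3-KO past the threshold (0.37 and 0.38, adjusted p = 0.0493 and 0.0426).

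Zic5 (ENSMUSG00000041703, 122456795 to 122465677, minus strand) was at 8.36 and 11.6 FPKM in WT, 10.4 and 9.76 FPKM in E1-KO, 10.98 and 12.5 FPKM in E2-KO and 8.24 and 9.43 FPKM in E3-KO. All 3 knockout groups overlapped WT. Its log2 fold changes were 0.02, 0.22 and -0.15, with 95% intervals of -0.33 to 0.38, -0.13 to 0.58 and -0.50 to 0.21 (limma-trend adjusted p = 0.916, 0.294 and 0.472). The value in E3-KO turned to 0.08 under quantile normalization, 0.01 under median-ratio scaling and 0.05 when GC content and length were corrected for. By these intervals the data leave room for changes of either gene of up to about 0.58 on the log2 scale.

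In direct comparisons between the knockouts, Tcf15 and Foxd3 were the only ones of the 7 regulators called. In E3-KO against E1-KO 2 of the 7 were called, Foxd3 higher and Tcf15 lower, against 25.8% of all tested genes (9.42% higher and 16.4% lower). In E2-KO against E1-KO limma-trend called 0 of the 7, against 0.834% of all tested genes (0.488% higher and 0.346% lower), and 4 had an unadjusted p under 0.05. In E3-KO against E2-KO it called 0 of the 7, against 15.6% (5.48% higher and 10.1% lower), and 3 had an unadjusted p under 0.05. Shares of all tested genes at that unadjusted threshold are not given here. Nothing particular to the 7 is read from any of these counts.

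The genes that rose are rich in GC. The longest transcripts of Utf1, Tcf15 and Foxd3 have a GC content of 63.5%, 65.8% and 65.1%, each above at least 99.2% of tested genes, against 46.8% for Otx2 and 50.2% for Grhl2. A correction of each sample for GC content and transcript length left 10 of the 13 calls against WT in place. The 3 it ended were Foxd3 in E2-KO (0.23, limma-trend adjusted p = 0.177), Tcf15 in E2-KO (0.39, adjusted p = 0.272) and Utf1 in E3-KO (0.60, adjusted p = 0.0572). Zic2, with a GC content of 59.9%, was not called with or without it.

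**Figure D3:**
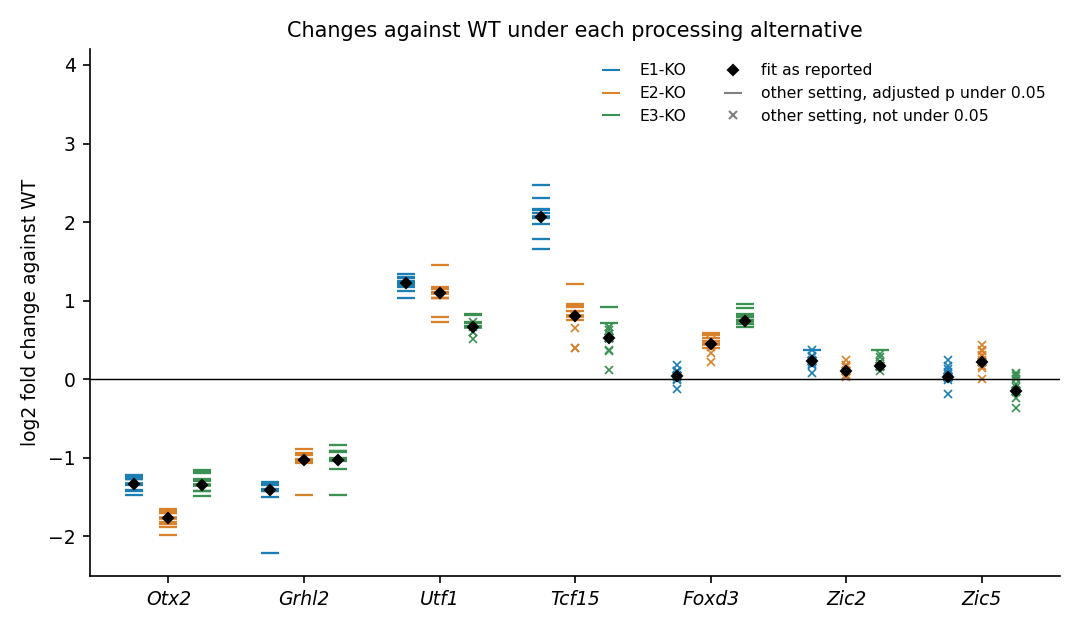
Log2 fold change against WT (y axis) of each regulator (x axis) in the fit as reported (diamonds) and under 20 other settings, as dashes where the adjusted p was under 0.05 and crosses where it was not. The values of Otx2 and Grhl2 stay below 0 and those of Utf1 above 0 in all 3 knockouts.

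The profiles of the 7 regulators over the 8 samples were compared by the root mean square difference of log2(FPKM + 1) taken from the WT mean. Zic2 and Zic5 were the closest pair (0.25), followed by Zic2 and Foxd3 (0.38) and by Otx2 and Grhl2 (0.42). Utf1 and Tcf15 were 0.52 apart, and Otx2 and Tcf15 the farthest (2.34). Among 8395 genes averaging 5 FPKM or more, those nearest to Otx2 were Fbxl12 (0.12), Cox7a2l (0.15) and Cln6 (0.16), and 19 genes lay within 0.25. Nearest to Grhl2 were Pla1a, Rell1 and Rps19, and 67 genes lay within 0.25. Utf1 had Gpatch4, Irak3 and Pfdn2 nearest and 50 genes within 0.25, and Foxd3 had Rdm1, Lmo7 and Prr14 nearest and 242 genes within 0.25. No gene lay that close to Tcf15, whose nearest was Stra8 (0.39), with log2 fold changes of 1.52, 0.63 and 0.53. For the nearly flat Zic2 and Zic5 2041 and 1800 genes lay within 0.25, led by Ap1g1 and by Nol6.

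Beside the regulators, 30 other genes linked to the formative and primed states were listed. Of these, 27 had a row and 19 could be tested. In E1-KO 8 were higher and 3 lower, in E2-KO 8 were higher and 2 lower, and in E3-KO 4 were higher and 5 lower. The shares over all tested genes were 15% higher and 23% lower, 14.2% and 22%, and 13.9% and 30.8%, and the list was not tested against them. The medians of the 19 genes were 0.36, 0.10 and -0.13, beside -0.06, -0.08 and -0.15 over all tested genes. Without E1-KO replicate 1 the number called in E1-KO was 7, and it was 5 in E2-KO without E2-KO replicate 1 or without WT replicate 1 and 6 without WT replicate 2. The 3 genes of new DNA methylation rose in all 3 knockouts. Dnmt3l, the cofactor of the methyltransferases, went from 8.38 and 8.69 FPKM in WT to between 39.5 and 67.3 FPKM in the 6 knockout samples, with log2 fold changes of 2.42, 2.46 and 2.24 (limma-trend adjusted p = 0.00017, 0.000167 and 0.000142). Dnmt3b rose by 1.08, 1.27 and 1.51 and Dnmt3a by 1.44, 0.96 and 1.03.

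Myc, a growth regulator, rose in all 3 knockouts (1.77, 1.75 and 0.94) from a WT level of 1.46 and 1.37 FPKM. Etv4, a target of FGF signals, rose in E1-KO (1.75) and E2-KO (1.38) but was at 42.2 and 38.8 FPKM in E3-KO beside 43.9 and 41.8 FPKM in WT, and E3-KO minus E1-KO was -1.83 (limma-trend adjusted p = 4.98e-05). Lefty2, an inhibitor of Nodal signals, fell in all 3 (-1.46, -2.40 and -1.58), from 43.5 and 42.6 FPKM in WT to between 5.24 and 20.0 FPKM. Sox4 fell in E3-KO (-1.49, adjusted p = 0.000963), to below E1-KO (-1.31, adjusted p = 0.00315) and E2-KO (-1.06, adjusted p = 0.0141).

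**Figure D4:**
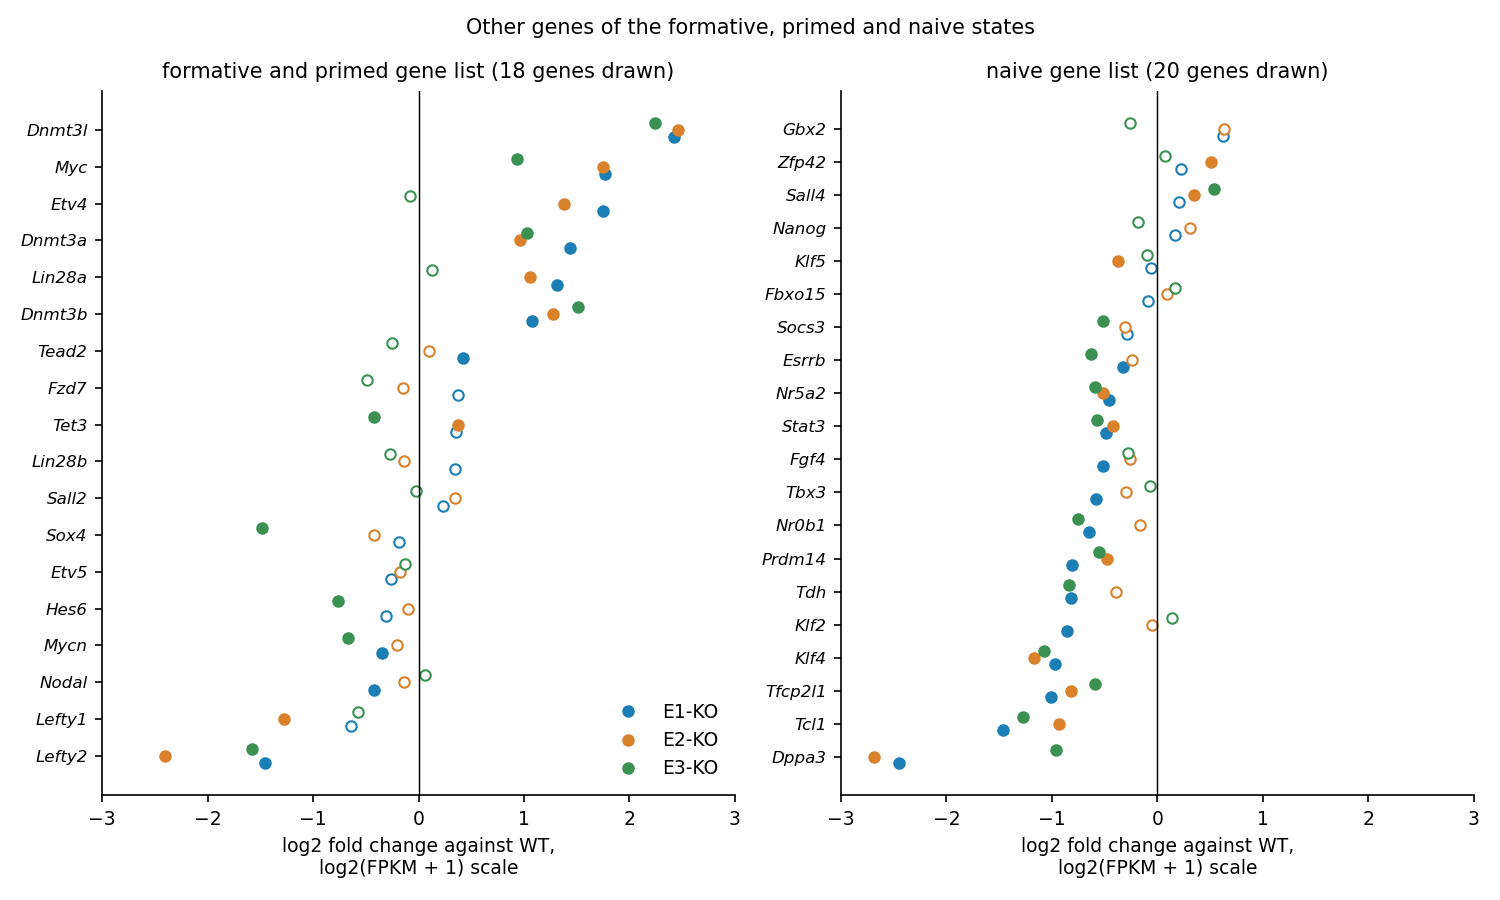
Log2 fold change against WT (x axis) of tested genes of the formative and primed list (left, 1 of the 19 not drawn) and the 20 of the naive list (right), 1 gene per line, in the 3 knockouts. Filled points have an adjusted p under 0.05, and Dnmt3l is above 2 in each knockout while Klf4 and Tcl1 are below -0.9.

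The naive list held 20 genes, all of which were tested. In E1-KO 0 were called higher and 13 lower by limma-trend, in E2-KO 2 higher and 8 lower, and in E3-KO 1 higher and 11 lower, with medians of -0.50, -0.30 and -0.53, beside the same shares over all tested genes. The homeobox gene Gbx2 did not pass in E1-KO (0.62, unadjusted p = 0.0219, adjusted p = 0.0557). Nor did it pass in E2-KO (0.63, unadjusted p = 0.0208, adjusted p = 0.0553) or E3-KO (-0.26, adjusted p = 0.374). Without WT replicate 2 the number called in E2-KO was 5. Dppa3, a maternal factor, fell in all 3 knockouts (-2.45, -2.68 and -0.96), as did Tcl1, a coactivator of AKT (-1.46, -0.93 and -1.28), the naive factor Klf4 (-0.97, -1.17 and -1.08) and the naive factor Tfcp2l1 (-1.01, -0.82 and -0.59). Tdh, a threonine dehydrogenase, fell in E1-KO (-0.82) and E3-KO (-0.84). Those called higher were Zfp42 in E2-KO (0.51, adjusted p = 0.027) and Sall4 in E2-KO (0.35, adjusted p = 0.0272) and E3-KO (0.53, adjusted p = 0.00313). Nanog passed in no knockout (0.17, 0.31 and -0.19). Klf2 fell in E1-KO (-0.86) and did not pass in E2-KO (-0.05) or E3-KO (0.14).

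Markers of other cell types were read in the same samples. The summed level of 6 neural genes was 15.4 to 17.3 FPKM in WT and 23.7 to 27.2 FPKM in the knockouts, most of it Ncam1 and Nes, with Neurog2 at or below 0.0408 FPKM in every sample. Of the 4 neural genes that could be tested, 3 were higher in E1-KO, 2 higher and 1 lower in E2-KO, and 2 higher in E3-KO. Of all tested genes 15%, 14.2% and 13.9% were called higher in these knockouts, and 23%, 22% and 30.8% lower. Nothing particular to the 4 genes is read from their counts. Genes of mesoderm and endoderm summed to 14.1 to 15.5 FPKM in WT and 6.78 to 10.9 FPKM in the knockouts. Most of this difference was Gsc, at 6.86 and 7.39 FPKM in WT and between 0.622 and 2.58 FPKM in the knockouts. Of the 3 genes tested, Gsc was called lower in all 3 knockouts, Gata6 higher in E3-KO (0.79, limma-trend adjusted p = 0.0249), and Eomes in none. Among genes too low to test, Mixl1 was above both WT samples in every knockout sample, and T below both. The trophectoderm genes summed to 60.0 to 94.1 FPKM over the 8 samples, most of it Tead4 (18.2 to 31.3 FPKM), Tfap2c (16.2 to 34.9 FPKM) and the 2 keratins above. Of the 5 trophectoderm genes tested, 1 was called higher and 2 lower in E1-KO. The counts were 0 higher and 2 lower in E2-KO and 2 higher and 1 lower in E3-KO. They stand beside the same shares over all tested genes, and nothing particular is read from them. Gata3 rose in E3-KO (1.59, limma-trend adjusted p = 0.00226), from 1.48 and 1.56 FPKM in WT to 8.86 and 4.84 FPKM. Cdx2 and Elf5, which define that lineage, were at or below 0.723 and 0.167 FPKM. Outside E3-KO replicate 1, Cdx2 was at or below 0.107 FPKM. Fibroblast genes summed to 3.28 to 3.39 FPKM in WT and 5.34 to 5.60 FPKM in E1-KO. Their sums were 3.51 to 4.45 FPKM in E2-KO and 4.68 to 5.10 FPKM in E3-KO. Of the 2 fibroblast genes tested, Thy1 was called higher in all 3 knockouts (1.03, 0.51 and 1.06), as were 6.56% of tested genes, and Pdgfrb in none. Thy1 was at 0.840 and 0.695 FPKM in WT and 2.54 and 2.69 FPKM in E1-KO. Col3a1, Dcn and Lum were at or below 0.0685 FPKM in every sample. Those of the two-cell-like state summed to 1.05 to 1.34 FPKM in WT and 1.37 to 2.09 FPKM in E1-KO. They summed to 1.99 to 3.41 FPKM in E2-KO and 3.97 to 3.98 FPKM in E3-KO. None of the 5 two-cell-like genes with a row could be tested, as each averaged under 1 FPKM. What part these levels have in the changes of the regulators was not tested.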

How the data were processed

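RNA from 8 samples (4 groups of 2) had been sequenced by the authors. They deposited 1 table of gene identifiers and values per sample. The submitters' processing notes name Trimmomatic 0.36, TopHat2 2.0.12, Cufflinks 2.2.1 and mm9, without order. No header states the unit, and the deposited values were taken as FPKM from their decimals, their unequal totals (454974 to 532007) and the naming of Cufflinks. Of 17812 identifiers, 660 were repeated. For 576 the row that followed genome order was kept, and 84 were left out. Each listed member had 1 row. Symbols matched for 17262 identifiers, and coordinates are those of GENCODE M21 (GRCm38), not mm9.

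Genes averaging 1 FPKM or more were fitted on log2(FPKM + 1) with limma 3.58.1 in R 4.3.3 (trend). There were 4 residual degrees of freedom, and 9.03 in total once the spread of other genes was drawn on. Results were called at an adjusted p under 0.05, two-sided. With a simulated log2 change of 1 in E1-KO, 98.5% of 200 altered genes among 11269 were called, along with 22 unaltered ones. With a change of 0.5, 20.5% of the 200 were called, along with 3 unaltered ones. The altered genes were drawn from levels above that of Grhl2, so the simulation does not cover genes that low. It also altered far fewer genes than were called in the data. Named were all members, Sox2, up to 4 called genes of each list per knockout, the 3 nearest profiles and the nearest listed neighbours. Also named, after their values were seen, were the epithelial, neural crest and other marker genes. So were Dnmt3a, Dnmt3b, Sox4, Gbx2, Zfp42, Sall4, Nanog and Klf2, where not in these. Members and lists were chosen with earlier results of these data known. Relative depths are rough, since 8.09% to 18.1% of low ratios lay at the step used. Alternatives were scaling, filters, pseudocount, thresholds, the handling of repeats, GC correction, a replicate block and leaving out samples. Some results are not reported here. Figures were drawn with matplotlib 3.10.9.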

Additional observations from a re-analysis of the deposited data

Results flagged for a closer look

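A pair of regulators differed between knockouts when these were tested directly by limma-trend. The change of Tcf15 in E3-KO minus that in E1-KO was -1.55 on the log2 scale (adjusted p = 0.0024), with both E1-KO samples above all other samples. The change of Foxd3 in E3-KO minus that in E1-KO was 0.697 (adjusted p = 0.00425), with both E3-KO samples above all other samples. The 2 genes thus differed in opposite directions between the same lines.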

How the results depend on the processing

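Of the 42 values of a regulator in a comparison, 15 were called, and 12 of these stayed called under the 20 alternatives other than stricter thresholds. Those that did not were Utf1 in E3-KO and Tcf15 and Foxd3 in E2-KO. Of 27 values not called, 8 passed under at least 1 of these alternatives, and no called value changed sign. Grhl2 had no value with a mean of at least 5 FPKM. Samples of the same replicate number did not deviate together (mean correlation 0.00483, range -0.0418 to 0.0889 over 6 pairs). With the replicate block the numbers called were 4 in E1-KO, 5 in E2-KO, 4 in E3-KO, 0 in E2-KO against E1-KO, 2 in E3-KO against E1-KO and 0 in E3-KO against E2-KO, and the block changed no call of a regulator.

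For E2-KO against WT the number of regulators called was 3, in place of 5, with an adjusted p under 0.01, with an added log2 fold change of at least 1 and with the GC and length correction. The added fold change gave 2 in E3-KO and 1 in E3-KO against E1-KO. In E2-KO against E1-KO the GC correction gave 1. In E3-KO against E2-KO quantile normalization and median-ratio scaling gave 1 each, and scaling without the 50 highest genes and the GC correction gave 2 each. Leaving out 1 sample gave 3 to 5 in E2-KO, 3 to 4 in E3-KO, 4 in E1-KO, 0 to 1 in E2-KO against E1-KO, 2 to 3 in E3-KO against E1-KO and 0 to 1 in E3-KO against E2-KO.

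For the formative and primed list the added fold change gave 7 called genes in E1-KO and 5 in E3-KO, and an adjusted p under 0.01 gave 5 in E2-KO. For the naive list the added fold change gave 3, 2 and 2, and an adjusted p under 0.01 gave 5 in E2-KO. Leaving out 1 sample gave 7 to 12, 5 to 10 and 6 to 11 formative genes and 9 to 14, 5 to 10 and 8 to 13 naive genes. A group left with 1 sample was taken to vary like the others. Stricter thresholds lower counts by construction, and for the other settings the cause was not tested.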
